A study of Cucumis sativus with 18 samples.

Results

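A set of 183 cucumber (Cucumis sativus) genes had their highest level at day 10 and day 20 of an ovary culture and a lower level both earlier and later. They were chosen from 23248 genes by their mean RPKM (reads scaled by the length of the gene and the total of the library) over the 3 libraries of each time, with 1 added to each mean. Both the day 10 and the day 20 mean had to be at least 5 RPKM, the pair had to lie under 2-fold apart, and the lower of them had to be at least 2 times the highest mean of the other 4 times. No gene was dropped for number, since the limit of 200 genes was not reached. The study followed unpollinated ovaries kept in culture, with 3 libraries at each of 6 times: fresh unpollinated ovaries, ovules cultured for 2 days, and embryos cultured for 10, 20, 30 and 60 days. The labels give no genotype, donor plant or treatment other than culture, and the series text calls the 3 libraries of a time biological replicates. The tissue is labelled ovary throughout while the time label goes over from ovaries to ovules and to embryos. By the time label, the tissue sampled changed together with the time at the first steps, while the tissue label does not show this.

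In ovary culture, cells of the unfertilised embryo sac can be induced to divide and to form embryos without fertilisation, a route called gynogenesis that gives haploid plants for breeding. Young plant embryos set up their body axis and divide quickly, and older ones go over to growth of organs and storage of reserves. The gene IDs are not paired with names in the files, and 0 IDs were found in the reference table of cucumber genes, so each gene is given by its ID only and no function can be stated. For the same reason the label of embryos could not be checked against marker genes. By the naming scheme of these gene models the digit after Csa is the chromosome.

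The libraries held 21.8 M to 72.5 M reads (M, mega) assigned to genes, as worked out from the steps in the RPKM values, with replicate 3 deeper than both others at all 6 times. Replicate 1 of day 10 listed 17653 genes above 0 and replicate 1 of day 20 listed 18591, fewer than the other libraries. The plateau genes rested on a median of 1887 reads in a library of day 10 or day 20 and of 191 reads in a library of the other times.

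The plateau genes spanned a wide range of levels, and most of them were already detected before day 10. Their median level was 1.79 RPKM in fresh ovaries, 4.67 at day 2, 38.5 at day 10, 39.2 at day 20, 6.01 at day 30 and 2.75 at day 60. Over the 8896 genes that were at 5 RPKM or more at both days and under 2-fold apart, the median stayed between 14 and 15.8 RPKM at the 6 times. Between the genes, the day 10 mean ran from 5.10 to 8918 RPKM and the day 20 mean from 5.14 to 5964 RPKM. A mean over both days of at least 100 RPKM was reached by 51 genes, and 18 stayed under 10 RPKM. In fresh ovaries 75 of the 183 genes were under 1 RPKM, against 36 at day 2, 14 at day 30 and 53 at day 60. Under 1 RPKM at all 4 of these times were 4 genes, while 87 had a mean of at least 10 RPKM at 1 or more of them. These levels follow from the rule that chose the genes and are given without a test.

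**Figure D1:**
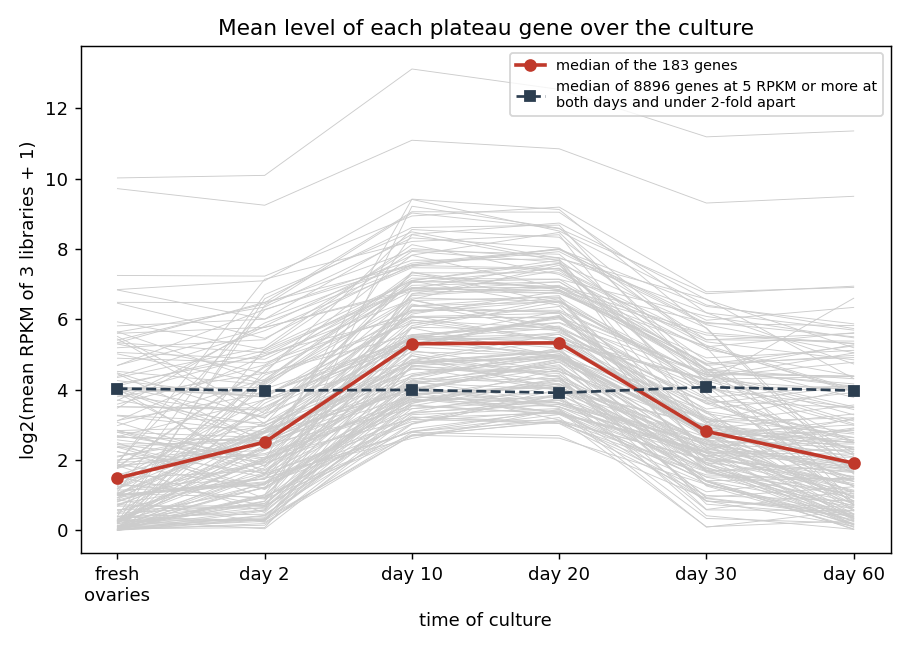
Mean level of each of the 183 plateau genes (grey lines, 1 per gene) at the 6 times, as log2 of the mean RPKM of 3 libraries plus 1, with their median (red circles) and the median of 8896 genes at 5 RPKM or more at both days and under 2-fold apart (dark squares). The median of the plateau genes is 38.5 RPKM at day 10 and 39.2 at day 20, and between 1.79 and 6.01 at the other times.

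As a share of all RPKM, the plateau genes together made up 0.944% in fresh ovaries, 1.04% at day 2, 5.95% at day 10, 4.97% at day 20, 1.38% at day 30 and 1.32% at day 60. A single gene, Csa2G023940, held a large part of this, and without it the shares at day 10 and day 20 were 3.97% and 3.69%. Since RPKM are shares of a library, more cells of a type and more RNA of a gene per cell cannot be told apart. A plateau at these neighbouring days was also the most frequent pair under the same rule. With any other 2 of the 6 times as the high pair, the rule found at most 74 genes, those high at day 30 and day 60, followed by 72 genes high in fresh ovaries and at day 60. The other 12 pairs gave between 2 and 32 genes.

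The highest ratio belonged to Csa6G448730, on chromosome 6 by its ID, at 39.20 between the lower of its day 10 and day 20 values and the highest of the other times. Its libraries read 0.148, 0.228 and 0.340 RPKM in fresh ovaries, 4.96, 4.90 and 2.70 at day 2, 264, 374 and 378 at day 10, 145, 234 and 228 at day 20, 2.53, 2.87 and 3.44 at day 30, and 0.897, 1.58 and 0.884 at day 60. Each of the 6 libraries of day 10 and day 20 lay far above each of the other 12. Csa3G042390 came next with a ratio of 19.95. It had 0.939, 0.965 and 2.19 RPKM in fresh ovaries, 2.04, 1.28 and 1.88 at day 2, 60.3, 93.6 and 91.4 at day 10, 44.1, 79.8 and 91.2 at day 20, 3.34, 1.74 and 2.86 at day 30, and 0.983, 0.771 and 1.17 at day 60. Such steep plateaus were rare, with 6 genes at a ratio of at least 10 and 26 at a ratio of at least 5. The median ratio was 2.92, and 103 of the 183 genes lay between 2 and 3.

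The 2 most abundant genes had shallow plateaus on a high base. Csa2G023940 averaged 8918 ± 4776 RPKM at day 10 and 5964 ± 2893 at day 20 (SD, n = 3 each), which ranked it 1 of all genes at day 10 and 2 at day 20. It was abundant at the other times as well, with 1039 ± 653 RPKM in fresh ovaries, 1093 ± 741 at day 2, 2338 ± 1111 at day 30 and 2627 ± 1587 at day 60. The large SDs come from the replicate 3 libraries, which were lowest at every time, for example 3438 RPKM at day 10 beside 12194 and 11123 in replicates 1 and 2. Libraries of the plateau and of the other times overlapped for this gene, since replicate 3 of day 20 at 2628 lay below replicate 2 of day 60 at 3788. Taken within 1 replicate number, its ratio was 2.38, 1.97 and 2.46 in replicates 1, 2 and 3. Csa6G318160 had tighter values, with 841 ± 60.5 RPKM in fresh ovaries, 606 ± 38.1 at day 2, 2186 ± 151 at day 10, 1847 ± 111 at day 20, 633 ± 34.7 at day 30 and 723 ± 72.9 at day 60, and its libraries of the plateau did not overlap the others.

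**Figure D2:**
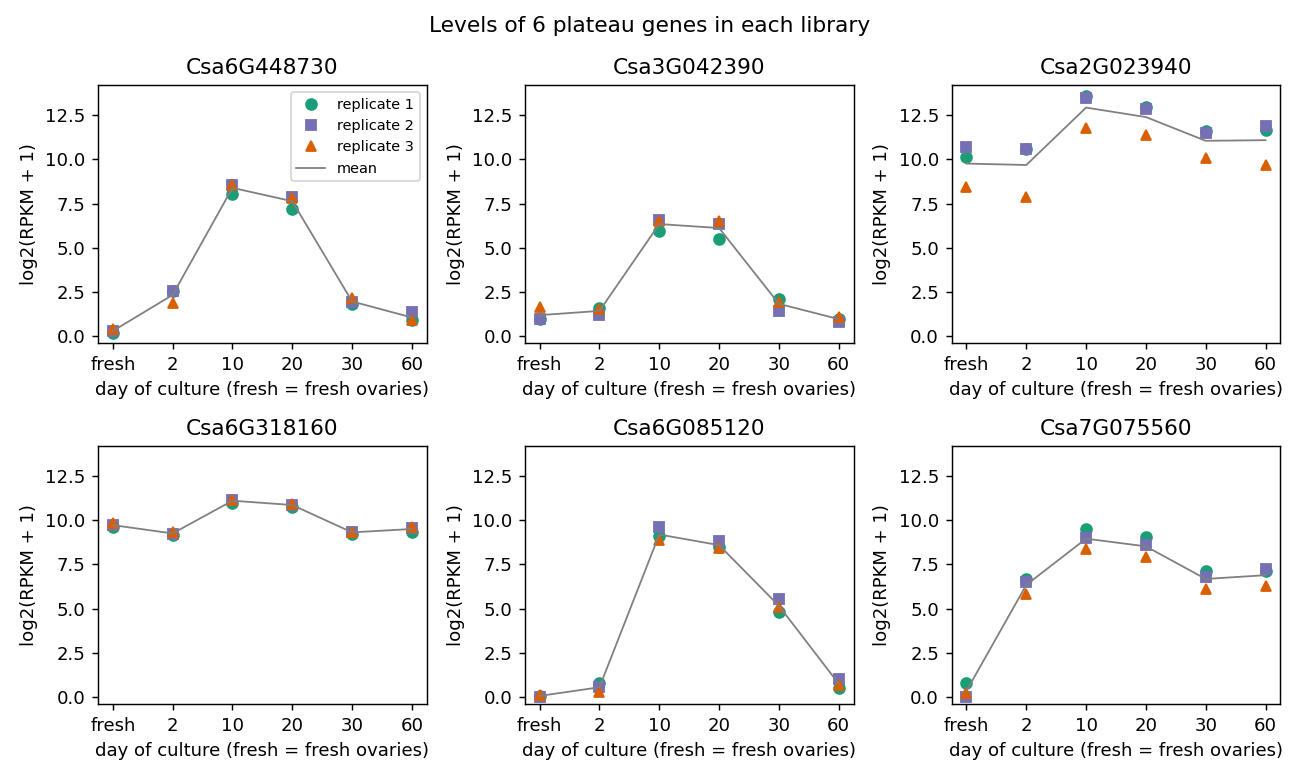
Level of 6 plateau genes in each of the 18 libraries, as log2(RPKM + 1) against the day of culture, with 1 symbol per replicate number and a line through the mean of the 3 log values. Csa6G448730 and Csa3G042390 are low outside day 10 and day 20, Csa2G023940 and Csa6G318160 are abundant at all times, and the replicate 3 libraries of Csa2G023940 lie below the other 2 at each time.

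At the edge of the rule, genes just inside and just outside had like values. The 2 genes just inside were Csa1G002030, with day 10 and day 20 means of 23.6 and 14.8 RPKM and a highest other mean of 6.88 at day 30, and Csa2G369050, with 15.4 and 10.3 RPKM and a highest other mean of 4.61 at day 2. Both had a ratio of 2.01. Just outside, Csa6G490940 reached 58.3 and 48.9 RPKM over a day 30 mean of 24.0, a ratio of 2.00 after rounding, and Csa3G149960 reached 7.25 and 7.94 RPKM over 3.15 at day 30, a ratio of 1.99. A further 56 genes met the level and the ratio but had day 10 and day 20 values 2-fold or more apart. Likeness of shape was measured as Pearson's r between a gene's mean log2(RPKM + 1) and that of the plateau genes over the 6 times, as a description. The plateau genes themselves had a median r of 0.937 and a lowest of 0.732, and 74 of 13931 other genes that reached 5 RPKM had an r at least as high as that median. The closest in shape were Csa5G106020 and Csa3G746580, each with an r of 0.991 and with shallower plateaus. Csa5G106020 had 17.2 and 16.7 RPKM at day 10 and day 20 and 11.4 to 12.8 at the other times, and Csa3G746580 had 10.3 and 10.4 RPKM and 3.59 to 5.70 at the other times.

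The single libraries behind the means that chose the genes are given as a description, with no test. In 176 of the 183 genes all 6 libraries of day 10 and day 20 lay above all 12 others. The other 7 overlapped, among them Csa6G496960, which had 0 reads in replicate 1 of day 10 and 44 and 84 reads in replicates 2 and 3. Within each replicate number taken alone, the ratio was at least 2 for 148 genes in replicate 1, 165 in replicate 2 and 159 in replicate 3. All of these counts, the 176 included, use the values that chose the genes. The same counts are not given over the other genes, so nothing can be read from their size. To have libraries that took no part in the choice, the rule was also applied to replicates 1 and 2 alone, which gave 189 genes, 169 of them among the 183. In the replicate 3 libraries all 189 had both plateau values above the 4 others, against 799 of 8561 other genes that met the level and the 2-fold limit in replicates 1 and 2, or 9.33%. The ratio in replicate 3 was at least 2 for 152 of the 189 genes, or 80.4%, and for 21 of the 8561 others, or 0.245%. These others are the genes that failed the ratio in replicates 1 and 2. A low share among them therefore follows largely from the choice, and the gap between the shares was not tested. The median ratio was 2.70 over the 189 genes in replicate 3, where it was 2.86 in the replicates that chose them.

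The genes differed in when, outside the plateau, they were highest. Of the 4 other means, the one at day 30 was highest in 89 genes and the one at day 2 in 45, while fresh ovaries were highest in 27 and day 60 in 22. Fresh ovaries held the lowest mean of 93 genes and day 60 that of 51, with 29 genes lowest at day 2 and 10 at day 30. Differences among these 4 times were tested with limma on log2(RPKM + 1) over 18153 genes, with Benjamini-Hochberg adjustment and a call at an adjusted p under 0.05. The fit had no term for the replicate number. The rule put a ceiling on these means but did not use the differences between them, and all 183 genes, which had been chosen for at least 5 RPKM at both days, passed the filter on low values.

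**Figure D3:**
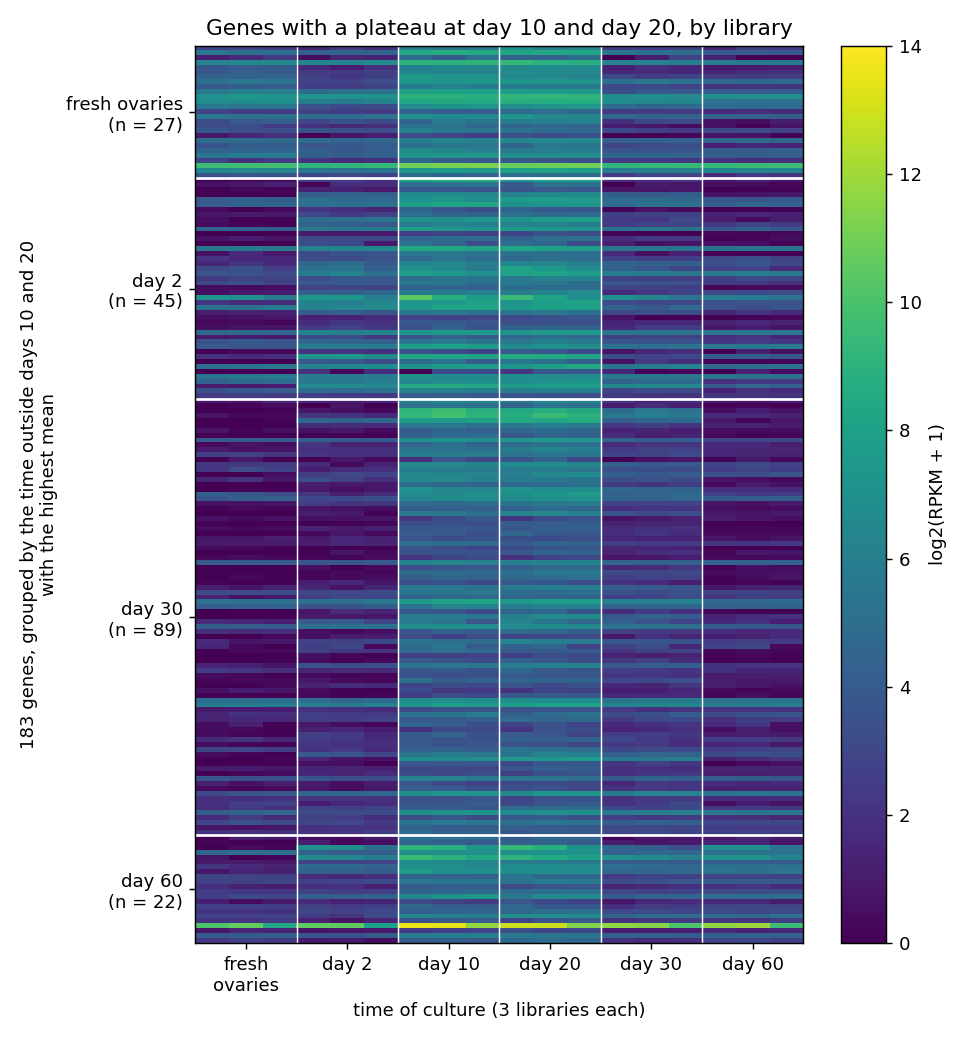
Level of each of the 183 plateau genes in the 18 libraries, as log2(RPKM + 1) by colour, in time order from fresh ovaries to day 60 with 3 libraries each. Rows are grouped by which time outside the plateau has the highest mean (27, 45, 89 and 22 genes from top to bottom) and ordered by ratio within a group.

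Between fresh ovaries and day 2, before the plateau, more of the plateau genes rose than fell. Called higher at day 2 were 87 of 183 genes, or 47.5%, where 31.1% of all 18153 tested genes were called higher. Called lower were 36 genes, or 19.7%, against 32.3% of all tested genes, and 60 were not called. Called in either direction were 67.2% of the plateau genes and 63.4% of all tested genes. The median log2 fold change was 0.39 over the plateau genes and -0.02 over all tested genes. The median of the plateau genes was 0.88 with a pseudocount of 0.1 and 1.05 with limma voom on the recovered reads, beside -0.03 and -0.02 over all tested genes. Called and at least 2-fold higher were 65 plateau genes, or 35.5%, beside 13.1% of all tested genes. Called and at least 2-fold lower were 17, or 9.29%, beside 13.4%.

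Csa2G237730 and Csa7G075560 came first by log2 change among the genes that rose, and their order turned round without replicate 1 of fresh ovaries, at 6.07 and 6.22. Csa2G237730 had 130, 119 and 35.6 RPKM at day 2, against 0, 0.332 and 0.160 in fresh ovaries, where it had 0, 4 and 4 reads. Its log2 change was 6.17 (SE 0.63, adjusted p = 4.29e-07) and 6.76 without replicate 3 of day 2. Limma voom gave a larger log2 change of 8.97 but did not call it (adjusted p = 0.199). Its replicate 3 libraries were the lowest at day 2, and over the 6 times they differed from replicates 1 and 2 by -1.34 on the log2 scale on average. Csa7G075560 had 101, 91.4 and 55.2 RPKM at day 2, against 0.767, 0 and 0.181 in fresh ovaries, a log2 change of 5.99 (SE 0.37, adjusted p = 1.17e-09). For both genes the libraries of day 2 lay above those of fresh ovaries, and the size of the change rests on few reads: with a pseudocount of 0.1 the log2 fold changes were 8.52 for Csa2G237730 and 8.11 for Csa7G075560. Other plateau genes were lower at day 2. Csa5G209480 had 2.32, 1.16 and 2.72 RPKM at day 2, against 13.5, 15.2 and 16.8 in fresh ovaries, a log2 change of -2.43 (SE 0.19, adjusted p = 1.85e-08), before it reached 82.1 at day 10. Csa3G116720 had 5.72, 6.44 and 9.40 RPKM at day 2, against 33.3, 50.0 and 44.0 in fresh ovaries, a log2 change of -2.41 (SE 0.16, adjusted p = 1.78e-09), and 159 RPKM at day 10.

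After the plateau, between day 30 and day 60, the plateau genes mostly fell further. Called lower at day 60 were 105 of 183 genes, or 57.4%, where 23.1% of all tested genes were called lower. Called higher were 14 genes, or 7.65%, against 17.2% of all tested genes, and 64 were not called. Limma voom called 8 plateau genes higher, or 4.37%, beside 18.2% of all tested genes. In either direction 65.0% of the plateau genes and 40.3% of all tested genes were called. The median log2 fold change was -0.64 over the plateau genes and -0.04 over all tested genes. Called and at least 2-fold lower were 66 plateau genes, or 36.1%, beside 7.27% of all tested genes, and at least 2-fold higher were 2, or 1.09%, beside 4.15%. Tested against a 1.5-fold change with limma, 56 plateau genes, or 30.6%, were lower at day 60, beside 5.94% of all tested genes. In that limma test 0 plateau genes were higher (3 at an unadjusted p under 0.05), beside 2.84% of all tested genes, where 14 were higher at an adjusted p under 0.05 with no minimum change and 8 by limma voom.

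The largest falls were those of neighbours on chromosome 6. Csa6G085120 had 0.450, 1.07 and 0.607 RPKM at day 60, against 27.4, 46.3 and 33.0 at day 30, a log2 change of -4.40 (SE 0.21, adjusted p = 4.53e-10). Csa6G085110 had 2.16, 2.22 and 1.67 RPKM at day 60, against 47.3, 64.1 and 45.5 at day 30, a log2 change of -4.13 (SE 0.23, adjusted p = 2.15e-09). Both had come down in steps, from day 20 means of 385 and 557 RPKM. Among the few that rose, Csa2G237730 had 117, 131 and 39.6 RPKM at day 60, against 25.8, 18 and 8.81 at day 30, a log2 change of 2.33 (SE 0.63, adjusted p = 0.00816), where limma voom gave 2.51 with no call (adjusted p = 0.0998). Csa5G155580 had 6.91, 7.05 and 5.24 RPKM at day 60, against 3.02, 2.28 and 2.65 at day 30, a log2 change of 1.02 (SE 0.16, adjusted p = 1.08e-04).

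Day 2 against fresh ovaries and day 60 against day 30 share no library, and their calls are set beside each other as a description. The calls are not independent, since both come from the same fit with a shared estimate of the spread. Libraries with the same replicate number also deviated together between times. Of the 87 genes called higher at day 2, 57 were called lower at day 60, which is 65.5% of them and 54.3% of the 105 genes lower at day 60. Over all tested genes the same shares were 36.7% and 49.4%. Of the 36 called lower at day 2, 19 were called lower at day 60, or 52.8% of them and 18.1% of the 105, beside 16.1% and 22.5% over all tested genes. Neither comparison called 27 plateau genes, or 14.8%, beside 25.4% of all tested genes. The difference between these shares was not tested, and plateau genes were lower at day 60 more often in any case, at 57.4% beside 23.1%.

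**Figure D4:**
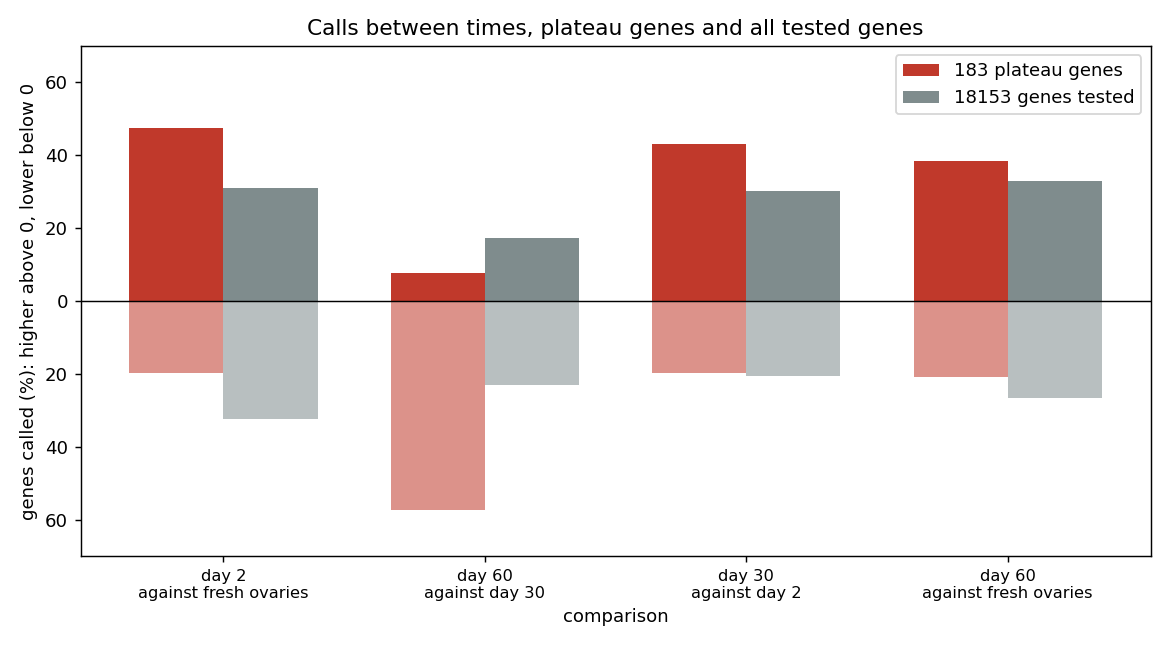
Share of genes called by limma at an adjusted p under 0.05 in 4 comparisons of times, for the 183 plateau genes (red) and all 18153 tested genes (grey), with genes called higher above 0 and genes called lower below 0 in per cent. At day 60 against day 30, 57.4% of the plateau genes are lower, against 23.1% of all tested genes.

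The level just after the plateau was set against the level just before it. Called higher at day 30 than at day 2 were 79 of the 183 genes, or 43.2%, where 30.3% of all tested genes were called higher. Called lower were 36 genes, or 19.7%, near the 20.6% of all tested genes. The median log2 fold change was 0.29 over the plateau genes and 0.10 over all tested genes, and 0.21 and 0.00 under median-ratio scaling of the libraries. In either direction 62.8% of the plateau genes and 50.9% of all tested genes were called. Called and at least 2-fold higher were 45 plateau genes, or 24.6%, beside 12.3% of all tested genes. At least 2-fold lower were 18, or 9.84%, beside 7.19%. This comparison shares the day 2 libraries with the first and the day 30 libraries with the second.

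Csa7G430200 had 53.4, 47.8 and 57.8 RPKM at day 30, against 1.83, 0.715 and 0.496 at day 2, a log2 change of 4.80 (SE 0.23, adjusted p = 1.05e-10), and its highest mean was 191 RPKM at day 20. Csa6G085120 stood at 35.6 RPKM at day 30, against 0.488 at day 2, a log2 change of 4.60 (SE 0.21, adjusted p = 4.60e-11). These genes kept a part of their plateau level at day 30 that they had not had at day 2. The opposite order was found for a pair on chromosome 7. Csa7G432230 had 9.13, 6.18 and 7.28 RPKM at day 30, against 153, 169 and 99.0 at day 2, a log2 change of -4.03 (SE 0.19, adjusted p = 5.99e-11). Csa7G432220 had 8.05, 6.76 and 7.26 RPKM at day 30, against 78.8, 64.1 and 85.0 at day 2, a log2 change of -3.20 (SE 0.21, adjusted p = 2.81e-09). Their day 10 means were 296 and 204 RPKM, and their day 60 means were 15.4 and 10.8 RPKM, above those of day 30.

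From the start to the end of the culture, the shares of plateau genes called with no minimum change were closer to those of all tested genes. Called higher at day 60 than in fresh ovaries were 70 of 183 genes, or 38.3%, beside 33.0% of all tested genes, and called lower were 38, or 20.8%, beside 26.7%. The share called in either direction, 59.0%, was near the 59.7% of all tested genes, so at this comparison the plateau genes were called about as often as genes in general. This comparison shares the fresh ovary libraries with the first and the day 60 libraries with the second. The median log2 fold change was 0.25 over the plateau genes and 0.08 over all tested genes, and it was 0.49 and 0.11 with a pseudocount of 0.1 and 0.45 and 0.12 with limma voom. Csa7G075560 had 138, 151 and 77.5 RPKM at day 60, against 0.767, 0 and 0.181 in fresh ovaries, a log2 change of 6.53 (SE 0.37, adjusted p = 6.12e-10). Csa2G237730 stood at 95.9 RPKM at day 60, against 0.164 in fresh ovaries, a change of 6.22 on the log2 scale (SE 0.63, adjusted p = 5.17e-07), and limma voom gave 9.02 with no call (adjusted p = 0.199). On the other side, Csa4G000840 had 0.531, 0.397 and 1.07 RPKM at day 60, against 8.01, 14 and 18 in fresh ovaries, a log2 change of -3.06 (SE 0.35, adjusted p = 2.07e-06). Csa5G209480 had 1.04 RPKM at day 60, against 15.2 in fresh ovaries, a log2 change of -2.98 (SE 0.19, adjusted p = 2.44e-09).

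Within the plateau, the rule held day 20 and day 10 under 2-fold apart, so the size of this difference was limited by the choice, and it is given as a description. The mean was higher at day 20 for 102 genes and higher at day 10 for 81. The fit called 64 of the 183 genes, or 35.0%, beside 30.9% of all tested genes. Called higher at day 20 were 41, or 22.4%, beside 16.4%, and called lower were 23, or 12.6%, beside 14.5%. Nothing can be read from these shares, since the other genes were under no such limit. Without replicate 2 of day 20 the genes called higher numbered 25.

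The named genes lie near the 2-fold limit of the rule, which sets how large their differences can be. Csa3G698490 had 11.7, 17.0 and 16.6 RPKM at day 20, against 7.19, 7.64 and 6.61 at day 10, a difference of 0.97 on the log2 scale. Csa4G182280 had 17.0, 25.3 and 26.6 RPKM at day 20, against 9.29, 12.4 and 11.9 at day 10, a difference of 0.96 on the log2 scale. It is listed at 0 in all 3 libraries of fresh ovaries. Of the genes with lower values at day 20, Csa6G085100 had 13.9, 15.2 and 14.9 RPKM at day 20, against 28.5, 34.2 and 28.2 at day 10, a difference of -1.0 on the log2 scale. Csa4G297420 had 102, 133 and 119 RPKM at day 20, against 225, 234 and 215 at day 10, a difference of -0.93 on the log2 scale. In each of the 4 genes the libraries of both days did not overlap. They were picked for the largest differences among the genes called, so this follows largely from the choice.

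Some plateau genes were neighbours in the order in which the genes are listed, which the rule did not use. A plateau gene stood directly before or after 21 of the 183 genes, or 11.5%, and directly beside 135 of the 8713 other genes at 5 RPKM or more at both days and under 2-fold apart, or 1.55%. Within 5 IDs on either side these shares were 20.2% and 7.14%. The 21 genes formed 9 runs, 6 of them of 2 genes and 3 of 3 genes. The runs of 3 were picked out after their values were seen.

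In the run on chromosome 6, Csa6G085100, Csa6G085110 and Csa6G085120 had day 10 means of 30.3, 684 and 594 RPKM. All 3 were under 1 RPKM in fresh ovaries and lower at day 20 than at day 10. In the run on chromosome 7, Csa7G432210, Csa7G432220 and Csa7G432230 had day 10 means of 58.2, 204 and 296 RPKM and day 2 means of 20.3, 76.0 and 140 RPKM. These 3 were alike in being already up at day 2 and low at day 30, with 3.83, 7.36 and 7.53 RPKM. The run on chromosome 2, Csa2G292850, Csa2G293350 and Csa2G293360, had day 10 means of 8.32, 25.9 and 85.4 RPKM. Whether neighbours are near-identical copies or overlap, so that reads were split between them, was not tested, and the values of single genes in a run are uncertain to that extent. By chromosome the plateau genes were spread much like the 8896 genes that met the level and the 2-fold limit. There were 37 plateau genes on chromosome 3 (20.2% beside 20.7%), 34 on chromosome 6 (18.6% beside 17.2%) and 17 on chromosome 5 (9.29% beside 12.7%).

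The plateau genes were short. The gene length behind the RPKM values had a median of 1251 bases over the 183 genes, with a middle range of 652 to 2206 bases. The 8896 genes that met the level and the 2-fold limit include the 183. They were not matched in level, with medians of 14.9 and 14.0 RPKM at day 10 and day 20, beside 38.5 and 39.2. Over these 8896 genes the median length was 3030 bases, with a middle range of 1759 to 4572. The sets of at least 20 genes found by the same rule with another high pair were also shorter than that, with medians of 844 to 1983 bases, and the difference between these sets was not tested. No source used here says if introns count towards the length.

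The median SD of log2(RPKM + 1) over 3 libraries was 0.24 at day 10 and 0.22 at day 20, beside 0.18 and 0.17 over the 8896 genes. In replicate 3, 6 of the 183 genes, or 3.28%, lay at least 2-fold below replicates 1 and 2 on average over the 6 times, beside 35 of 8713 others, or 0.402%. Short genes make up more of the plateau genes, and under 1000 bases the counts were 5 of 83 plateau genes, or 6.02%, beside 23 of 961 others, or 2.39%. The lowest was Csa2G023940, at -1.92 on the log2 scale, followed by Csa1G004110 at -1.73 and Csa3G842100 at -1.40. Csa3G842100 had 1399, 434 and 209 RPKM in replicates 1, 2 and 3 of day 10. Over all 183 genes the median difference of replicate 3 was -0.03.

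**Figure D5:**
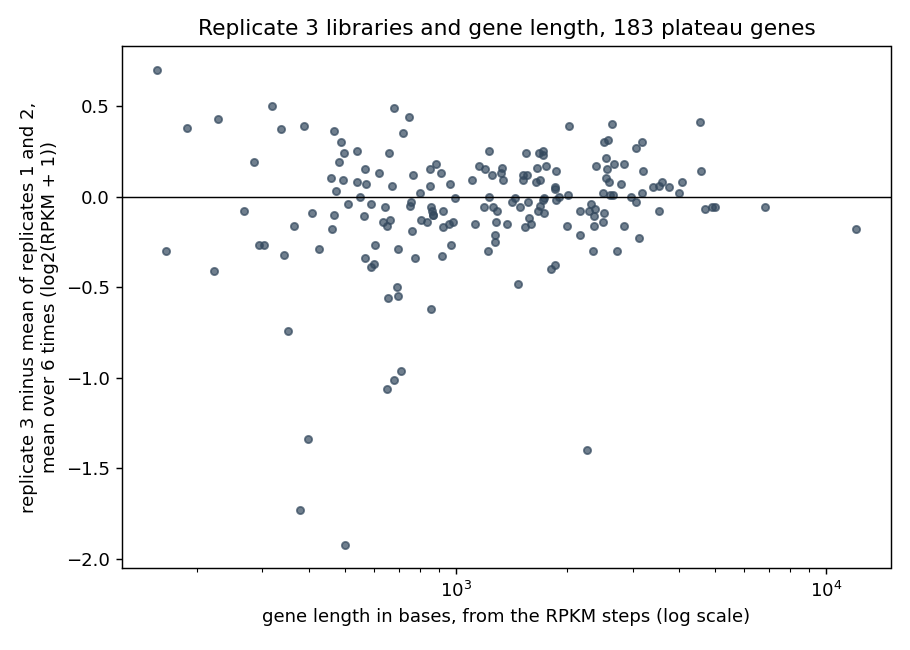
Difference of the replicate 3 libraries from the mean of replicates 1 and 2, averaged over the 6 times on the log2(RPKM + 1) scale, against gene length in bases on a log axis, with 1 point per plateau gene. Most points lie near 0, and 6 genes lie at -1 or lower.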

How the data were processed

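RNA was measured in 18 libraries, 3 at each of 6 times, which the series design calls biological replicates. Per the labels' protocols, poly(A) RNA was made into paired-end Illumina libraries. TopHat2, TopHat and HTSeq version 0.6.1p2 are named in the submitters' processing notes, with no role. Build, annotation and strand setting were not given in any source used. Each deposited file holds RPKM, per the file headers, which the authors had scaled for depth and gene length only.

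Library totals and gene lengths were worked out from the RPKM steps. Each length was chosen to make the values of a gene whole reads within 0.1. That 100% of the values above 0 were whole reads is therefore by construction and is no check. A length was found for 21761 genes, which are all genes above 0, and reads summed to the totals. The recovery was tested on simulated data. PCR reads are not independent molecules.

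The genes, comparisons and lists were chosen with earlier results of these data known. The test was limma (version 3.58.1, R 4.3.3) on values of log2(RPKM + 1), using trended and robust variance, 1 coefficient per time and all 18 libraries, over 18153 genes at 1 RPKM or more in at least 3 libraries. Fold changes on this scale understate the change of low genes. The fit was tested on simulated data. Tables and figures were made in Python 3.11.15 (pandas 2.3.3, numpy 2.4.6, matplotlib 3.10.9). P-values set the difference between times against the spread between libraries of a time, as estimated over all 18 libraries. Lists of pathway and marker genes could not be used, since no ID has a name.

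Genes named are the first 2 by ratio, by level, at either edge of the ratio, by likeness of shape, and by rise and fall in each comparison, because the IDs have no names. Genes in runs and with a low replicate 3, and Csa6G496960, were chosen after their values were seen. Libraries with the same replicate number deviated together between times, with r of 0.20 to 0.65 over tested genes in every pair compared. The r was 0.54 to 0.65 for replicate 3, the deepest, and 0.20 to 0.41 for replicates 1 and 2. The numbers therefore link the libraries, but what a number stands for was not tested. The main limma fit had no term for this link. Calls with a replicate block are given with the other settings below.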

Additional observations from a re-analysis of the deposited data

How the results depend on the processing

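The ratio of at least 3 left 80 genes, by construction. Other settings of the rule gave 173 to 192 genes with 1 library left out, 193 with a pseudocount of 0.1, 235 with median-ratio and 199 with upper-quartile size factors, and 189 without replicate 1 of day 10 and day 20, 166 of them among the 183. Counts of genes called stayed within 1.5 times in 386 of 405 alternatives. Tested against a 1.5-fold change, which asks for more, the calls were 75 at day 2 against fresh ovaries (15 lower), 56 at day 60 against day 30 (0 higher and 56 lower), 53 at day 30 against day 2 (39 higher and 14 lower), 57 at day 60 against fresh ovaries (37 higher and 20 lower) and 1 at day 20 against day 10 (0 higher and 1 lower; 7 higher at an unadjusted p under 0.05). In the same order that test called 13.2%, 2.84%, 11.7%, 11.8% and 4.40% of all tested genes higher and 13.1%, 5.94%, 6.88%, 9.76% and 2.46% lower. For day 20 against day 10, whose difference the rule limits, 27 genes were called higher with a pseudocount of 0.1, and the 6 libraries of these times alone gave 41 calls, 24 of them higher. Leaving out 1 library gave 25 to 41 genes higher at day 20. Limma voom called 8 genes higher at day 60 than at day 30. The causes were not tested. With the replicate block the calls were 131, 128, 121, 125 and 81 for the 5 comparisons in the order of the text. The block moved 0 counts by over 1.5 times and ended 0 calls of named genes. For the block, the pseudocount, the 6 libraries alone and 1 library left out, no share of all tested genes is given. Those counts are set only beside the counts of the main fit. Of 540 alternatives for named genes, 531 kept their call and 9 lost it, all with the same direction. Voom, the fits without replicate 1 of day 10 and day 20, and the rule with other high pairs were chosen after seeing the data. Depth limits genes near 0 in fresh ovaries, where a few reads set the fold change.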
